A study of Homo sapiens with 8 samples.

Results

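The 7 MT-ND genes (MT-ND1, MT-ND2, MT-ND3, MT-ND4, MT-ND4L, MT-ND5 and MT-ND6) encode the subunits of respiratory complex I that are made inside mitochondria, and they were taken by symbol from the 20719 gene IDs of the ribosome profiling count tables. All 7 were listed and all 7 passed the filter on low counts, which kept 11097 genes. The libraries come from G401, a kidney rhabdoid tumor cell line without SMARCB1, a core subunit of the mSWI/SNF chromatin remodelers. Each of the 2 lines carries a doxycycline-controlled Tet-On transgene, either SMARCB1 or GFP as a control, and both were given doxycycline (Dox, 0.1 μg/ml) or DMSO for 12 h. This gives 4 groups of 2 libraries, named SMARCB1 Dox, SMARCB1 DMSO, GFP Dox and GFP DMSO. Whether a line is 1 clone is not given in the sources used here, and each library pools several plates of 1 condition. The methods say that experiments were done in duplicate without saying how independent the cultures were, so p-values measure the spread between these libraries, which may be in part technical.

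Between 5924443 and 14000039 counts fell on genes in a library. Reads with more than 1 alignment made up 56.4% of all alignments reported for GFP Dox replicate 1 and 25.6% to 39.7% in the other libraries, so results are also given below without that library. The labels were checked on SMARCB1 (chromosome 22, 23786931 to 23838009 in GRCh38), which had 2553 and 1750 counts in SMARCB1 Dox and 0 in each of the other 6 libraries. This check bears on the SMARCB1 Dox label alone and cannot tell SMARCB1 DMSO, GFP Dox and GFP DMSO from one another. Vimentin (VIM) had at least 7325 counts in each library, and the keratins KRT8 and KRT18 had at least 7503 and 5109. The blood marker PTPRC had 0 counts in all libraries, the endothelial marker PECAM1 had 7 in all libraries together and the epithelial marker EPCAM had 38.

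Complex I passes electrons from NADH to ubiquinone and pumps protons across the inner mitochondrial membrane, and its MT-ND subunits, all in the membrane arm, are translated by mitochondrial ribosomes, whereas the remaining subunits are encoded in the nucleus and imported. Mitochondrial DNA is transcribed from both strands into long precursors, and MT-ND6 is the single protein-coding message of the light-strand precursor, while the other MT-ND messages are cut from the heavy-strand precursor. Tetracyclines such as doxycycline bind bacterial-type ribosomes and can slow mitochondrial translation, so the GFP line given Dox is the control for the drug itself.

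The genes are annotated without introns on the mitochondrial chromosome of GRCh38. On the plus strand lie MT-ND1 (ENSG00000198888, chrM:3307-4262), MT-ND2 (ENSG00000198763, chrM:4470-5511) and MT-ND3 (ENSG00000198840, chrM:10059-10404). They are followed by MT-ND4L (ENSG00000212907, chrM:10470-10766), MT-ND4 (ENSG00000198886, chrM:10760-12137) and MT-ND5 (ENSG00000198786, chrM:12337-14148). MT-ND6 (ENSG00000198695, chrM:14149-14673) lies on the minus strand. The first 45 bases of 5 of the genes are shown 5′ to 3′ on the coding strand, with the start codon in capitals, because the strands differ in base composition and the genes in their start codons.
MT-ND1: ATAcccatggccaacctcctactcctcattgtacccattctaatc
MT-ND2: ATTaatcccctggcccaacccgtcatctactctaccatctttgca
MT-ND3: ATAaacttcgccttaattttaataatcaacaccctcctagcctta
MT-ND5: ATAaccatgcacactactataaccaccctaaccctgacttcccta
MT-ND6: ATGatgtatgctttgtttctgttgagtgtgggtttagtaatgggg

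MT-ND1, MT-ND3 and MT-ND5 start with ATA and MT-ND2 with ATT, which mitochondria read as methionine starts, and MT-ND4L, MT-ND4 and MT-ND6 start with ATG. MT-ND6 holds 35.6% G and 7.05% C on its coding strand. The heavy-strand MT-ND genes show the opposite, with 9.50% G in MT-ND2 to 12.1% in MT-ND4L and 29.5% C in MT-ND3 to 36% in MT-ND1. MT-ND4L and MT-ND4 share a bicistronic message and overlap by 7 bases, shown in capitals on the plus strand of chrM:10742-10784.
MT-ND4L and MT-ND4: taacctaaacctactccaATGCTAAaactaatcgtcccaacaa

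MT-ND5 and MT-ND6 end tail to tail with 0 bases between them, shown on the plus strand of chrM:14119-14178, with the last bases of MT-ND5 in lower case and the complement of the end of MT-ND6 in capitals.
MT-ND5 and MT-ND6: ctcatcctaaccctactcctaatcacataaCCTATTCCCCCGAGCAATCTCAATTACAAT

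No other coding sequence lies opposite MT-ND6, but the heavy-strand precursor runs across its position in antisense. The strand option of the counting is not given in the sources used here. Without strand, footprints on the MT-ND6 message and reads from heavy-strand RNA opposite it cannot be told apart, and the counts per gene do not show where along a gene the reads lie. Copies of mitochondrial DNA in the nuclear chromosomes can also make a read ambiguous. Exact copies covered 4.73% of the 30-base windows in MT-ND3, 17.0% in MT-ND5, 18.1% in MT-ND4L, 23% in MT-ND4, 34.3% in both MT-ND1 and MT-ND6, and 58.0% in MT-ND2. Among the MT-ND genes, levels of MT-ND2 are therefore the most open to loss of reads with more than 1 alignment. MT-ND ratios are given below per kb of the full length and per kb of the windows without such copies. The latter divides the same counts of the whole gene by the shorter length, which assumes that no read from a copied window was counted. That was not tested.

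MT-ND6 held most of the mitochondrial footprint counts in each of the 8 libraries. It had 37582 and 75157 counts in SMARCB1 DMSO, 58950 and 20213 in SMARCB1 Dox, 27327 and 63650 in GFP DMSO, and 27796 and 17647 in GFP Dox, for replicates 1 and 2. All 6 heavy-strand MT-ND genes together had 3248 and 2656 counts in SMARCB1 DMSO, 4382 and 1607 in SMARCB1 Dox, 3078 and 4604 in GFP DMSO, and 1472 and 2137 in GFP Dox. MT-ND6 thus held between 89.2% and 96.6% of the MT-ND counts. These are bulk libraries, in which fewer cells of a type and less RNA per cell cannot be told apart.

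Per kb of coding sequence, MT-ND6 stood 91.6-fold above the heavy-strand MT-ND genes in GFP Dox replicate 2, where the gap was smallest, and 314-fold in SMARCB1 DMSO replicate 2, where it was largest. The median of the 8 libraries was 144-fold. With the same counts divided by the length of the windows without nuclear copies, a choice made after the data were seen, the ratio ran from 103-fold to 353-fold. Mean CPM per kb (CPM, counts scaled to a common library size with TMM, divided by coding length) was 8128 for MT-ND6, which ranked 2 of the 11096 genes with a coding length and between 1 and 5 in single libraries. The gene above it, named after its value was seen, was the ribosomal protein gene RPL41 with 10760 CPM per kb.

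**Figure D1:**
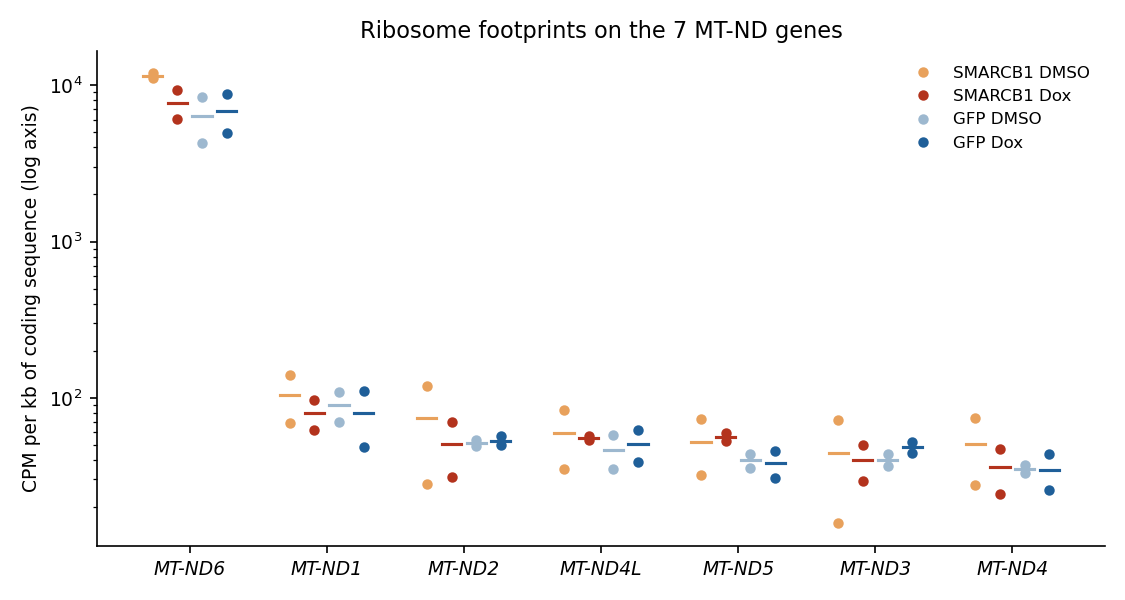
CPM per kb of coding sequence (log axis) of the 7 MT-ND genes, with 1 point per library, colors for the 4 groups and a bar at each group mean (n = 2). MT-ND6 lies between 4282 and 11940 CPM per kb, and the heavy-strand genes lie between 15.8 and 140.5.

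**Figure D2:**
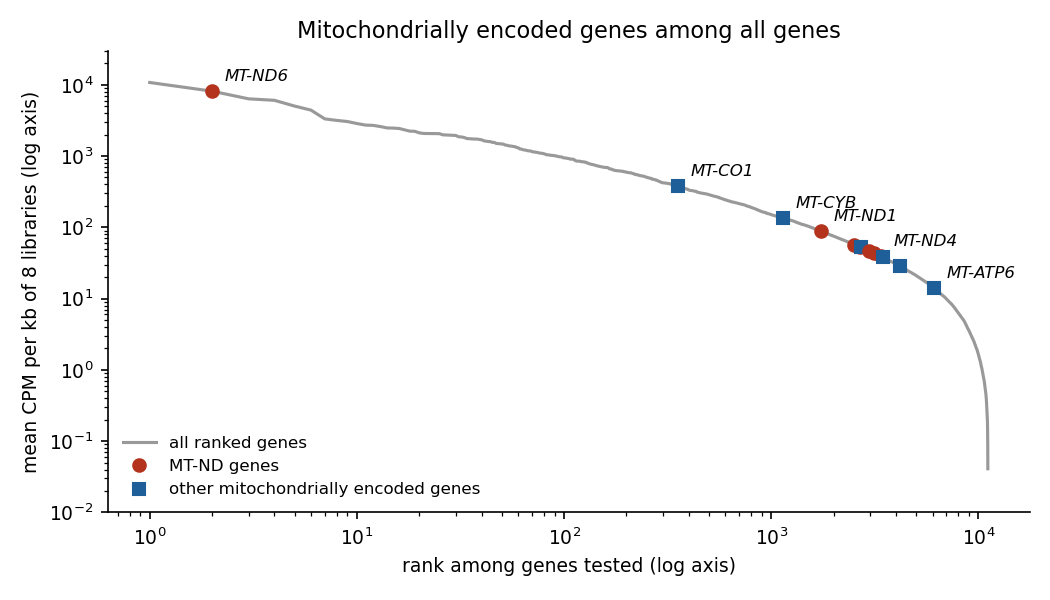
Mean CPM per kb of 8 libraries against rank for the 11096 genes tested that have a coding length (both axes log), with MT-ND genes as circles and the 6 other mitochondrially encoded genes as squares. MT-ND6 ranks 2, MT-CO1 ranks 355, and the heavy-strand MT-ND genes lie between ranks 1733 and 3395.

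The heavy-strand MT-ND genes ranked between 1733 (MT-ND1) and 3395 (MT-ND4) of 11096 genes by mean CPM per kb. MT-ND1 was the highest of them with a mean of 88.4 CPM per kb (range 48.6 to 140.5 over 8 libraries), followed by MT-ND2 with 57.3 (28.2 to 119.7), MT-ND4L with 53.0 (35.0 to 84.0), MT-ND5 with 46.6 (30.8 to 72.7), MT-ND3 with 42.9 (15.8 to 72.3) and MT-ND4 with 39.0 (24.4 to 73.7). MT-ND1 exceeded MT-ND2 in 7 of 8 libraries, by 0.68 ± 0.46 on the log2 scale (mean ± SD of the ratio per kb, n = 8). The mean ratio was smaller than its SD between libraries for MT-ND2 over MT-ND4L (0.04 ± 0.45), MT-ND4L over MT-ND5 (0.18 ± 0.20), MT-ND5 over MT-ND3 (0.17 ± 0.61) and MT-ND3 over MT-ND4 (0.12 ± 0.65). Whether these means differ from 0 was not tested. Dividing the same counts by the shorter length shifts each ratio by a constant and leaves its SD as it is. The mean log2 ratio then came to 0.04 for MT-ND1 over MT-ND2, 0.89 for MT-ND2 over MT-ND4L, 0.33 for MT-ND4L over MT-ND5 and 0.27 for MT-ND5 over MT-ND3. MT-ND3 over MT-ND4 came to −0.09, so this pair alone among the neighbors changed the sign of its mean log2 ratio. With the shorter length, MT-ND1 exceeded MT-ND2 in only 4 of 8 libraries. MT-ND2 then exceeded MT-ND4L, and MT-ND4L exceeded MT-ND5, in 8 of 8 libraries, against 4 and 6 with the full length. MT-ND6 over MT-ND1 was 6.52 ± 0.67 with the full length, higher in 8 of 8 libraries.

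The other mitochondrially encoded genes, all on the heavy strand, framed these levels. MT-CO1, the catalytic subunit of cytochrome c oxidase, had 376 CPM per kb although 71.1% of its windows had a nuclear copy, and MT-CYB, of complex III, had 135. MT-CO2 had 52.5, MT-CO3 38.1, MT-ATP8 28.8 and MT-ATP6 13.9 CPM per kb. Nuclear copies covered 7.73% of the windows in MT-CYB, 51.4% in MT-CO2, 46.1% in MT-CO3, 45.7% in MT-ATP8 and 64.6% in MT-ATP6. All levels in this paragraph are per kb of the full length, so the place of these genes among the MT-ND genes can depend on that choice. In the median library, the heavy-strand MT-ND genes had a median of 49.9 CPM per kb, against 96.6 for the 36 tested nuclear-encoded subunits of complex I. How well RiboLace captures mitochondrial ribosomes is not given in the sources used here, so this is a comparison of footprint counts and not of protein synthesis.

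The 13 mitochondrially encoded genes held 0.318% to 0.802% of the counts on genes. The share was 0.802% and 0.613% in SMARCB1 DMSO, 0.651% and 0.461% in SMARCB1 Dox, 0.318% and 0.576% in GFP DMSO, and 0.473% and 0.411% in GFP Dox. The 2 GFP DMSO libraries thus spanned the values of both GFP Dox libraries. MT-ND genes made up 85.9% and 92.6% of mitochondrial counts in SMARCB1 DMSO, 85.2% and 78.8% in SMARCB1 Dox, 79.8% and 84.6% in GFP DMSO, and 89.2% and 74.8% in GFP Dox. MT-ND6 alone made up 79.1% and 89.4% in SMARCB1 DMSO, 79.3% and 73.0% in SMARCB1 Dox, 71.7% and 78.9% in GFP DMSO, and 84.7% and 66.7% in GFP Dox. In no group comparison did both libraries of 1 group clear both libraries of the other in the share of MT-ND6, other than SMARCB1 DMSO over GFP DMSO. The 95% Wilson intervals were at most 0.0144 percentage points wide for the mitochondrial share, 1.05 for the MT-ND share and 1.14 for the MT-ND6 share. They cover counting error only, as no molecular identifiers are given, and the gaps between replicates were wider than these intervals in every group.

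**Figure D3:**
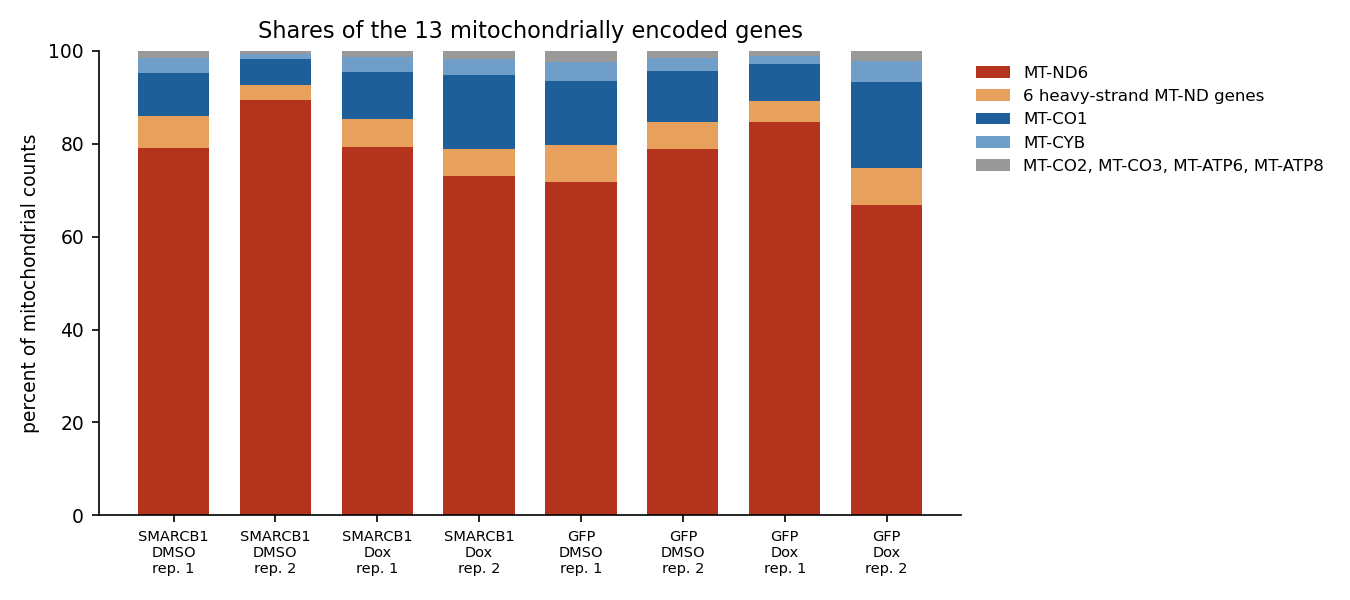
Percent of mitochondrial counts held by MT-ND6, by the 6 heavy-strand MT-ND genes together and by the other genes, for each library. MT-ND6 takes between 66.7% and 89.4%, and MT-CO1 between 5.56% and 18.5%.

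Because MT-ND6 sets most of the total, the heavy-strand MT-ND genes were also described as a share of the 12 heavy-strand genes, a measure added after the data were seen. They held 32.7% and 29.9% in SMARCB1 DMSO, 28.5% and 21.5% in SMARCB1 Dox, 28.5% and 27.0% in GFP DMSO, and 29.3% and 24.3% in GFP Dox. Both SMARCB1 DMSO libraries lay above the other 6 libraries on this share, whose 95% Wilson intervals were at most 2.51 percentage points wide. It was not tested, since it was chosen with the values in view.

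None of the composite measures passed an exact permutation test between treatments or lines, in a design where a single measure could not pass after adjustment. With 2 libraries against 2 no such test can reach 0.05, so 4 Dox libraries were set against 4 DMSO libraries, and 4 SMARCB1 line libraries against 4 GFP line libraries, two-sided, over all 70 assignments, with adjustment over these 8 tests. The smallest p this allows is 0.0286, and 1 test at that limit alone would have an adjusted p of 0.229, so these tests say little about the absence of a difference. The mitochondrial share was 0.499% ± 0.105 with Dox and 0.577% ± 0.199 with DMSO (SD, n = 4 each; exact permutation p = 0.543, adjusted p = 0.653). For the lines, the means were 0.632% ± 0.140 with the SMARCB1 transgene and 0.445% ± 0.109 with GFP, and the p was the lowest of the 8 (exact permutation p = 0.0857, adjusted p = 0.653).

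The share of mitochondrial counts on MT-ND genes was 82.0% ± 6.42 with Dox and 85.7% ± 5.30 with DMSO (exact permutation p = 0.371, adjusted p = 0.653), and 85.6% ± 5.65 in the SMARCB1 line against 82.1% ± 6.18 in the GFP line (exact permutation p = 0.400, adjusted p = 0.653). The share on MT-ND6 was 75.9% ± 7.77 with Dox and 79.8% ± 7.30 with DMSO (exact permutation p = 0.571, adjusted p = 0.653), and 80.2% ± 6.82 against 75.5% ± 7.89 between the lines (exact permutation p = 0.343, adjusted p = 0.653).

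The log2 ratio of MT-ND6 to the heavy-strand MT-ND genes per kb was 7.14 ± 0.49 with Dox and 7.30 ± 0.72 with DMSO (exact permutation p = 0.743, adjusted p = 0.743), and this small difference turned in sign without SMARCB1 DMSO replicate 2 (0.18) or without GFP Dox replicate 2 (0.06). Between the lines it was 7.41 ± 0.60 against 7.03 ± 0.56 (exact permutation p = 0.457, adjusted p = 0.653). SMARCB1 DMSO had the widest spread of this ratio within a group (7.65 ± 0.91, SD, n = 2), and SMARCB1 Dox the narrowest (7.17 ± 0.07).

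**Figure D4:**
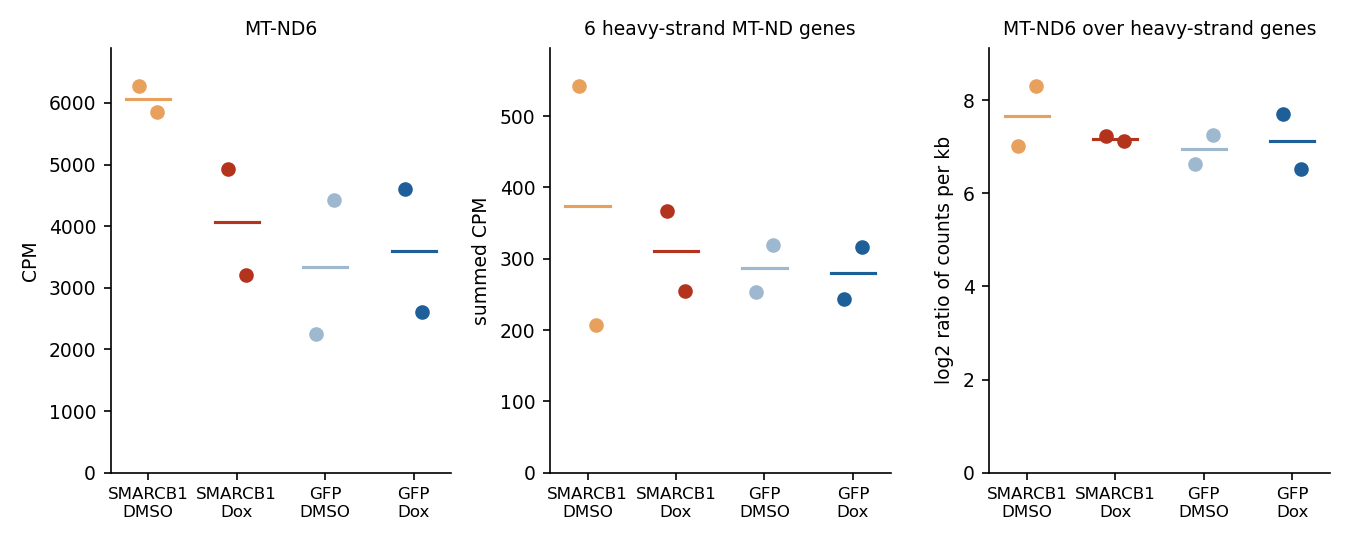
CPM of MT-ND6, summed CPM of the 6 heavy-strand MT-ND genes and the log2 ratio of their counts per kb, with 1 point per library and a bar at the group mean (n = 2). In SMARCB1 DMSO the libraries lie close in MT-ND6 (6268 and 5856 CPM) and apart in the heavy-strand sum (542 and 207 CPM).

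Re-expression of SMARCB1 was compared first, as SMARCB1 Dox against SMARCB1 DMSO, to ask whether footprints on MT-ND genes moved with SMARCB1. MT-ND6, a small membrane-arm subunit, had 4932 and 3204 CPM in SMARCB1 Dox (4068 ± 1222, SD, n = 2) and 6268 and 5856 in SMARCB1 DMSO (6062 ± 292). Both Dox libraries were below both DMSO libraries, and the groups were apart in 1 direction or the other for 35.6% of all genes tested. The log2 fold change of MT-ND6 was −0.58 (SE 0.36, 95% interval −1.36 to 0.21, adjusted p = 1 from edgeR), so it did not pass the test. None of the 7 MT-ND genes was called, at an adjusted p below 0.05 in edgeR with quasi-likelihood fits and Benjamini-Hochberg correction over 11097 genes, while 0.0180% of all genes were (2 genes). At an unadjusted p below 0.05 there were 0 MT-ND genes and 552 genes in all, and DESeq2 called 36 genes with 0 MT-ND genes among them.

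Among the antiporter-like subunits, which span the pumping arm, MT-ND2 had 73.5 and 32.5 CPM with Dox and 125 and 29.4 with DMSO, a log2 fold change of −0.52 (SE 0.49). MT-ND4 had 65.1 and 33.6 CPM with Dox and 102 and 38.0 with DMSO, a log2 fold change of −0.48 (SE 0.41). MT-ND5 had 108 and 95.8 CPM with Dox and 131 and 57.6 with DMSO, a log2 fold change of 0.12 (SE 0.33). For all 3 genes the 2 DMSO libraries enclosed both Dox libraries or overlapped them, and SMARCB1 DMSO replicate 1 was the highest of the 8 libraries.

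MT-ND1, which lies where the arms meet and helps to form the ubiquinone site, had 92.7 and 59.8 CPM with Dox and 134 and 66.2 with DMSO, a log2 fold change of −0.39 (SE 0.40). MT-ND3, a small subunit near that junction, had 10.2 and 17.3 CPM with Dox and 25 and 5.45 with DMSO, a log2 fold change of −0.12 (SE 0.52). MT-ND4L, another small subunit, had 16.7 and 15.9 CPM with Dox and 24.7 and 10.3 with DMSO, a log2 fold change of −0.08 (SE 0.41). The DMSO libraries of all 3 genes lay on either side of at least 1 Dox library, and the adjusted p from edgeR was 1. The lowest bound of the 95% intervals of the 7 genes was 0.336-fold (MT-ND2) and the highest was 2.0-fold (MT-ND3). Each gene's own interval was narrower, such as 0.391-fold to 1.15-fold for MT-ND6 and 0.663-fold to 1.78-fold for MT-ND5. For each gene the data are compatible with changes of either direction within its own interval. Leaving out SMARCB1 DMSO replicate 1 turned the log2 fold change of MT-ND1 (0.20), MT-ND2 (0.86), MT-ND3 (1.31), MT-ND4L (0.66) and MT-ND4 (0.38) above 0. MT-ND3 also turned (0.22) without SMARCB1 Dox replicate 1, and MT-ND5 turned (−0.36) without SMARCB1 DMSO replicate 2.

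Doxycycline was then compared in the GFP line, which has no SMARCB1 counts with or without the drug. MT-ND6 had 4599 and 2610 CPM in GFP Dox (3604 ± 1406) and 2248 and 4422 in GFP DMSO (3335 ± 1537). The libraries of the groups alternated, and the log2 fold change was 0.11 (SE 0.36, 95% interval −0.67 to 0.89). None of the 7 MT-ND genes was called, and 0% of all genes were, with edgeR. At an unadjusted p below 0.05 there were 0 MT-ND genes and 240 genes in all, and DESeq2 called 0. MT-ND1 had 46.5 and 106 CPM with Dox and 66.8 and 104 with DMSO, a log2 fold change of −0.16 (SE 0.40). MT-ND3 had 18 and 15.2 CPM with Dox and 15.1 and 12.6 with DMSO, a log2 fold change of 0.27 (SE 0.51). It was the 1 MT-ND gene whose Dox libraries lay apart from the DMSO libraries, against 26.3% of all genes tested in either direction. The other log2 fold changes were 0.05 for MT-ND2 (SE 0.49), 0.11 for MT-ND4L (SE 0.42), −0.02 for MT-ND4 (SE 0.42) and −0.06 for MT-ND5 (SE 0.33), and the adjusted p from edgeR was 1 for all 7 genes.

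Several of these signs depended on 1 library. Without GFP Dox replicate 1, the library with the high share of reads with more than 1 alignment, the log2 fold change was −0.35 for MT-ND6, 0.31 for MT-ND1 and 0.19 for MT-ND5. Without GFP Dox replicate 2 it was −0.27 for MT-ND4L, 0.32 for MT-ND4 and −0.056 for MT-ND2, and 148 genes were called, with 0 MT-ND genes among them. Leaving out GFP DMSO replicate 1 gave −0.30 for MT-ND6, −0.20 for MT-ND4L and −0.012 for MT-ND2, and leaving out GFP DMSO replicate 2 gave 0.19 for MT-ND1, 0.070 for MT-ND4 and 0.098 for MT-ND5.

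The Dox effects of the 2 lines were compared directly, and 0 of 7 MT-ND genes and 0% of 11097 genes were called with edgeR (0 MT-ND genes and 443 in all at an unadjusted p below 0.05, and 1 gene by DESeq2, no MT-ND gene). Without GFP Dox replicate 2 there were 105 called genes. For MT-ND6 the difference of the effects was −0.69 on the log2 scale (SE 0.51, adjusted p = 0.981). Averaged over both lines, 0 of 7 MT-ND genes and 0% of all genes were called with edgeR (0 MT-ND genes and 384 in all at an unadjusted p below 0.05, and 6 genes by DESeq2, no MT-ND gene), with log2 fold changes from −0.27 for MT-ND1 to 0.07 for MT-ND3. The alternatives of this average lay on both sides of 0 for each of the 7 genes, from −0.63 to 0.020 for MT-ND1 and from −0.31 to 0.79 for MT-ND3. With all Dox libraries against all DMSO libraries, 0 of 7 MT-ND genes were apart, and 1.30% of all genes were.

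**Figure D5:**
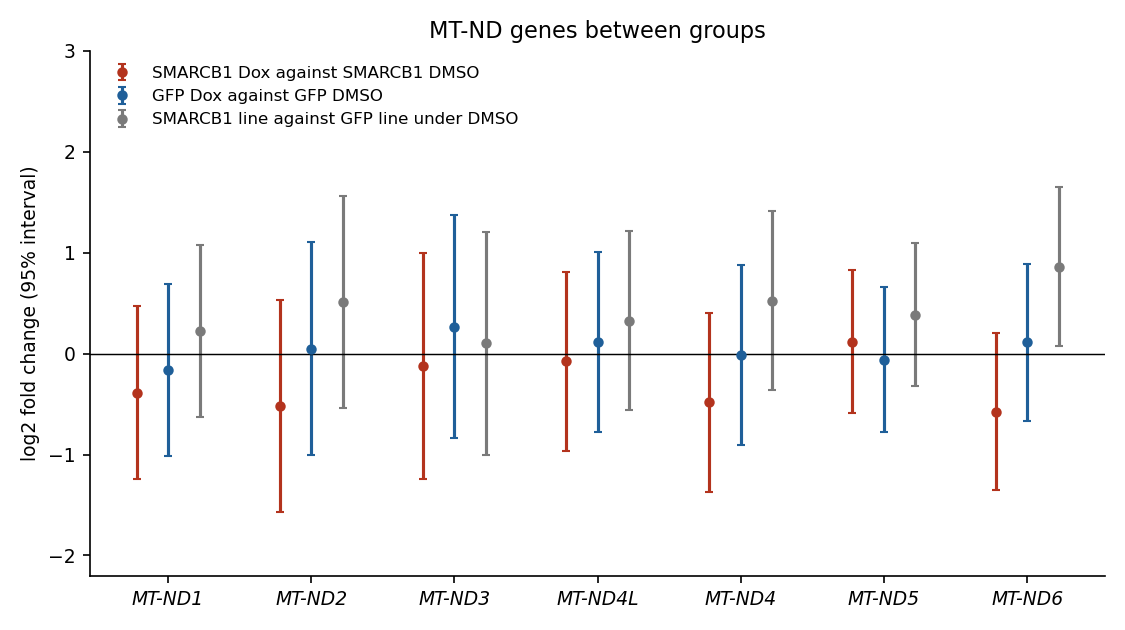
Log2 fold changes of the 7 MT-ND genes from edgeR's quasi-likelihood fit of all 8 libraries, with 95% intervals, for the effect of Dox in each line and for the lines under DMSO (2 libraries per group). The intervals cross 0 except for MT-ND6 between the lines under DMSO, whose adjusted p is 0.283.

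The SMARCB1 line and the GFP line were compared under DMSO, where neither line expresses SMARCB1, to see how far the lines themselves differ. MT-ND6 had 6268 and 5856 CPM in SMARCB1 DMSO and 2248 and 4422 in GFP DMSO. The libraries did not overlap, as for 44.8% of all genes tested in either direction. The SMARCB1 DMSO libraries had the highest MT-ND6 CPM of all libraries. They also enter SMARCB1 Dox against SMARCB1 DMSO, so the MT-ND6 differences of these contrasts share a group and are not independent. The log2 fold change of MT-ND6 was 0.86 (SE 0.37, 95% interval 0.08 to 1.65), higher in the SMARCB1 line, with an adjusted p of 0.283 from edgeR, so that it was not called. Without a filter on low counts the adjusted p was 0.0413, and over all its alternatives it ran from 0.0413 to 0.976. Called were 0 of 7 MT-ND genes and 5.29% of all genes (587 genes, 296 higher and 291 lower in the SMARCB1 line). At an unadjusted p below 0.05 edgeR found 1 MT-ND gene, MT-ND6, and 1546 genes in all, and DESeq2 called 743 genes with 0 MT-ND genes.

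All 7 MT-ND genes had a log2 fold change above 0 between the lines under DMSO, with MT-ND4 at 0.53 (SE 0.41), MT-ND2 at 0.51 (SE 0.49), MT-ND5 at 0.39 (SE 0.33), MT-ND4L at 0.33 (SE 0.41), MT-ND1 at 0.22 (SE 0.40) and MT-ND3 at 0.10 (SE 0.51). Each of these 6 genes was below 0 without SMARCB1 DMSO replicate 1, from −0.32 for MT-ND5 to −1.34 for MT-ND3, whereas MT-ND6 was at 0.81. MT-ND1 was also below 0 without GFP DMSO replicate 1 (−0.061) and MT-ND3 without GFP DMSO replicate 2 (−0.018). The genes called in all numbered 324 and 299 without GFP DMSO replicates 1 and 2, and 378 without SMARCB1 DMSO replicate 2.

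Under Dox, 727 genes were called between the lines (6.55%), 367 higher and 360 lower in the SMARCB1 line, with 0 of 7 MT-ND genes by edgeR. At an unadjusted p below 0.05 there were 0 MT-ND genes and 2074 genes in all, and DESeq2 called 971 with 0 MT-ND genes. The total was 348 and 379 without SMARCB1 Dox replicates 1 and 2, and 1661 without GFP Dox replicate 2. MT-ND5, an antiporter-like subunit, had 108 and 95.8 CPM in SMARCB1 Dox and 55.8 and 82.2 in GFP Dox, a log2 fold change of 0.57 (SE 0.33, adjusted p = 0.398 from edgeR). It was the 1 MT-ND gene without overlap, against 46.1% of all genes tested. MT-ND6 had a log2 fold change of 0.17 (SE 0.36, adjusted p = 0.846), which was −0.17 without SMARCB1 Dox replicate 1 or GFP Dox replicate 2. The other log2 fold changes lay on both sides of 0, with MT-ND3 at −0.29 (SE 0.52), MT-ND2 at −0.06 (SE 0.49), MT-ND1 at 0.0016 (SE 0.40), MT-ND4 at 0.06 (SE 0.42) and MT-ND4L at 0.14 (SE 0.42). With all SMARCB1 line libraries against all GFP line libraries, 0 of 7 MT-ND genes were apart, and 17.6% of all genes were.

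How the MT-ND genes varied from library to library was described by correlation. Over the 8 libraries, Pearson's r of log2 CPM was 0.19 to 0.90 in the 15 pairs of heavy-strand MT-ND genes, with a median of 0.59, and −0.22 to 0.60 between MT-ND6 and each of them, with a median of 0.23. The highest pair was MT-ND4L with MT-ND5 (r = 0.90), and MT-ND4L with MT-ND4, which share a message, had r = 0.48. These are descriptions over libraries that share groups and depth, and the difference between the sets of pairs was not tested.

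The tested genes outside the mitochondrial chromosome with the pattern most like the summed heavy-strand MT-ND genes over the 8 libraries were UTY (r = 0.96), RPS6KA3 (0.96), ZNF614 (0.96), SOS2 (0.92) and UBXN2A (0.92). For MT-ND6 they were RNF182 (r = 0.93), BAIAP2L1 (0.93), CDK10 (0.92), RDH13 (0.91) and ADRA2C (0.90, with only 3 to 33 counts per library). They were picked as the highest of all tested genes, and the median r over those genes was 0.0085 for the heavy-strand sum and −0.0059 for MT-ND6.

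Of the 6 other mitochondrially encoded genes, 0 were called in the 6 contrasts by edgeR or DESeq2, and 1 had an unadjusted p below 0.05 (MT-ATP8, in the GFP line). Of all genes, edgeR called 0.0180% for Dox in the SMARCB1 line, 0% in the GFP line, 5.29% between the lines under DMSO and 6.55% under Dox, shares at which 0 of 6 is no result about these genes. Their median log2 fold change was 0.04 in SMARCB1 Dox against SMARCB1 DMSO, beside −0.02 over all genes, and −0.14 in the GFP line, beside 0.02. MT-ATP8, a small subunit of ATP synthase, had 15.6 and 3.40 CPM in GFP Dox and 3.95 and 1.95 in GFP DMSO, a log2 fold change of 1.68 (SE 0.70, adjusted p = 1 from edgeR). Without GFP Dox replicate 1, which held 94 counts of MT-ATP8, the value was 0.22.

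Of the 37 nuclear-encoded complex I subunits, 36 were tested and 0 were called for Dox in either line by edgeR or DESeq2, beside 0.0180% and 0% of all genes. At an unadjusted p below 0.05 there were 0 of 36 in the SMARCB1 line and 4 of 36 in the GFP line, beside 552 and 240 of all 11097 genes. For Dox, their median log2 fold change was −0.10 with the SMARCB1 transgene and −0.17 with GFP (all genes −0.02 and 0.02), and 13 and 14 of 36 were above 0. Between the lines it was 0.15 under DMSO and 0.17 under Dox, beside 0.02 and −0.01 over all genes. The smallest p-values in each direction belonged to NDUFA3 (1.26, SE 1.08, with 0.500 to 2.54 CPM) and NDUFB5 (−0.53, SE 0.27) in the SMARCB1 line, and to NDUFB2 (0.83, SE 0.37) and NDUFA9 (−1.04, SE 0.36) in the GFP line. The adjusted p from edgeR was 1 for these 4. The sizes of 3 of them rested on single libraries, as NDUFB2 was at 0.075 without GFP Dox replicate 1, NDUFA3 at 0.34 without SMARCB1 Dox replicate 2 and NDUFB5 at −0.10 without SMARCB1 DMSO replicate 2. For NDUFA9 in the GFP line the value ran from −1.51 to −0.70 without 1 library. NDUFA9 was also the 1 listed gene called between the lines under Dox, where 6.55% of all genes were called (log2 fold change 1.50, SE 0.36, adjusted p = 0.0222), and its call was lost in 4 alternatives whose log2 fold changes stayed between 1.15 and 1.62. These were the fit of only the groups compared (1.50, adjusted p = 0.0856) and the fits without GFP Dox replicate 1 (1.15, adjusted p = 0.120), without SMARCB1 Dox replicate 1 (1.62, adjusted p = 0.0885) and without SMARCB1 Dox replicate 2 (1.37, adjusted p = 0.156). Over all its alternatives the adjusted p ran from 0.00291 to 0.156. The count of complex I subunits called there was 2 with DESeq2, without a filter on low counts or with the replicate block. Of all genes, these fits called 971 of 11097, 1004 of 14323 and 922 of 11097. Without GFP Dox replicate 2, which left that group with 1 library, calls rose among complex I subunits and among all genes.

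Assembly factors, which build complex I without staying in it, also held 0 called genes among 16 tested for Dox in either line by edgeR or DESeq2, beside 0.0180% and 0% of all genes by edgeR (at an unadjusted p below 0.05, 0 and 0, beside 552 and 240 of all 11097 genes), with medians of −0.03 and 0.15 in the SMARCB1 and GFP lines. Their smallest p-values were for NDUFAF6 (0.59, SE 0.30) and TMEM186 (−0.61, SE 0.31) in the SMARCB1 line, and for FOXRED1 (0.40, SE 0.27) and NDUFAF2 (−0.46, SE 0.29) in the GFP line, each with an adjusted p of 1 from edgeR. Without 1 library they ran from 0.34 to 0.93 for NDUFAF6, −0.96 to −0.36 for TMEM186, 0.15 to 0.60 for FOXRED1 and −0.80 to −0.20 for NDUFAF2.

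Genes of mitochondrial transcription and RNA processing held 0 called genes among 20 tested for Dox by edgeR or DESeq2, beside 0.0180% and 0% of all genes by edgeR (at an unadjusted p below 0.05, 1 and 2 in the SMARCB1 and GFP lines, beside 552 and 240 of all 11097 genes), with medians of 0.04 and −0.02. In the SMARCB1 line the smallest p-values were for SUPV3L1, a helicase of the mitochondrial RNA degradosome (0.52, SE 0.24, adjusted p = 0.998 from edgeR), and TEFM, the transcription elongation factor (−0.64, SE 0.30, adjusted p = 0.999). In the GFP line they were for FASTK, whose mitochondrial isoform is known for its role in MT-ND6 messages (0.91, SE 0.43, adjusted p = 1), and SLIRP, which stabilizes heavy-strand messages with LRPPRC (−0.69, SE 0.27, adjusted p = 1). FASTK had 9.43 and 20.7 CPM in GFP Dox and 6.99 and 9.10 in GFP DMSO, and SLIRP had 73.5 and 136 CPM in GFP Dox and 177 and 162 in GFP DMSO. SLIRP was called without GFP Dox replicate 2 (adjusted p = 0.0345, with a range of 0.0345 to 1 over its alternatives), and over the 8 fits without 1 library its log2 fold change ran from −1.21 to −0.31. FASTK was at 0.22 without GFP Dox replicate 2 and at 1.36 without GFP Dox replicate 1. For SUPV3L1 and TEFM these fits gave 0.40 to 0.64 and −0.86 to −0.46.

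Mitochondrial translation factors held 0 called genes among 12 tested for Dox by edgeR or DESeq2, beside 0.0180% and 0% of all genes by edgeR (at an unadjusted p below 0.05, 0 and 0, beside 552 and 240 of all 11097 genes), with medians of −0.09 and 0.03. The smallest p-values were for MTRF1L, a release factor, in both lines (0.62, SE 0.51, and 0.46, SE 0.53), for TSFM, an elongation factor, in the SMARCB1 line (−0.36, SE 0.26) and for MRRF, the ribosome recycling factor, in the GFP line (−0.28, SE 0.33). The adjusted p from edgeR was 1 for each. Without 1 library the values ran from 0.47 to 0.76 and 0.27 to 0.68 for MTRF1L in the SMARCB1 and GFP lines, −0.53 to −0.17 for TSFM and −0.56 to −0.062 for MRRF.

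Mitochondrial ribosomal proteins held 0 called genes among 76 tested for Dox by edgeR or DESeq2, beside 0.0180% and 0% of all genes by edgeR (at an unadjusted p below 0.05, 1 and 1, beside 552 and 240 of all 11097 genes), with medians of −0.09 and 0.01. Without GFP Dox replicate 2, which left that group with 1 library, calls rose among these genes and among all genes. This held in the GFP line and in the difference of the Dox effects. The smallest p-values were for MRPL37 (0.47, SE 0.22, adjusted p = 1 from edgeR) and MRPL3 (−0.54, SE 0.24, adjusted p = 0.980) in the SMARCB1 line, and for MRPL34 (0.94, SE 0.36) and MRPL11 (−0.55, SE 0.28) in the GFP line, both with an adjusted p of 1. Without 1 library the values ran from 0.37 to 0.56 for MRPL37, −0.65 to −0.42 for MRPL3, 0.58 to 1.22 for MRPL34 and −1.0 to −0.21 for MRPL11.

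Between the lines, edgeR called 0 genes of the 5 nuclear lists under DMSO, where 5.29% of all genes were called, and under Dox it called NDUFA9 alone, where 6.55% were. At an unadjusted p below 0.05 there were 2 and 5 complex I subunits, 2 and 3 assembly factors, 2 and 1 genes of transcription and RNA processing, 0 and 0 translation factors and 4 and 1 ribosomal proteins under DMSO and Dox, beside 1546 and 2074 of all 11097 genes. DESeq2 called 0 of the listed genes under DMSO, beside 743 of all 11097 genes. Under Dox it called 2 complex I subunits and 1 gene of transcription and RNA processing, beside 971 of all 11097 genes. Without GFP Dox replicate 2, which raised the calls among all genes under Dox to 1661, edgeR called 7 complex I subunits, 7 ribosomal proteins, 1 assembly factor and 1 gene of transcription and RNA processing. These counts were not tested against those of other genes.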

How the data were processed

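Ribosome-protected fragments were isolated with RiboLace from 8 libraries of G401 cells. The authors aligned reads with STAR to hg38 and deposited raw counts per gene from HTSeq, run as intersection-strict on the GENCODE 42 coding sequences. Adapter, duplicate and rRNA handling, tool versions and the strand option are not given in the sources used here. The 5 summary rows per file were left out, in which reads on no coding sequence made up 36.6% to 45.9% of uniquely aligned reads. Symbols, positions and coding lengths came from GENCODE 44 by ID without version, and 311 of 20719 IDs had no symbol. Replicates differed by more than sampling noise (chi-square per degree of freedom 14.7 to 44.8). Nuclear copies were exact matches of 30-base windows to the nuclear chromosomes.

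Counts were filtered with filterByExpr, scaled with TMM and fitted with glmQLFit, 1 term per group, in edgeR 4.0.16 (R 4.3.3, limma 3.58.1, DESeq2 1.42.0, Python 3.11.15), and tested on simulated data. Genes were called at an adjusted p below 0.05. Named were the 13 mitochondrially encoded genes, SMARCB1, the smallest p-value per direction and line in 5 nuclear lists, and the 5 genes most correlated with each pattern (log2 CPM, prior count 1). The members and lists were chosen with earlier results of these data known. Alternatives were DESeq2, other scalings, filters and samples, a robust fit, a fold change above 2, other compositions of the shares and leaving out each library.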

Additional observations from a re-analysis of the deposited data

How the results depend on the processing

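No MT-ND gene was called in 105 of the 106 alternative fits of the 6 contrasts, and the exception was 1 gene, MT-ND6, between the lines under DMSO without a filter on low counts. The exact permutation tests of the composite measures gave p from 0.0571 to 0.971 in their 106 alternatives, with 0 below 0.05. Alternatives that permuted only within sets of libraries had too few assignments to fall below 0.05, so this 0 was in part fixed in advance. Without 1 library, the difference of Dox and DMSO in percentage points ran from −0.165 to −0.0031 for the mitochondrial share, −6.12 to −1.34 for the MT-ND share and −6.77 to −0.628 for the MT-ND6 share, and that of the lines from 0.131 to 0.244, 1.13 to 5.91 and 1.63 to 7.77. The counts of called MT-ND genes and the permutation p-values say little about stability. At the shares of all genes called in the main fits, 0% to 6.55%, 0 of 7 is no result about these genes. A single permutation test could not pass after adjustment. The number of all genes called varied with the fit. In SMARCB1 Dox against SMARCB1 DMSO, where 2 were called, there were 36 with DESeq2, 46 without a filter, 1 when each library had to hold 10 counts or more, 5 with only the groups compared, and 1 to 22 without 1 library. In the GFP line, for the difference of the Dox effects and for their average (0 called each) there were 14, 15 and 16 without a filter, 0, 1 and 6 with DESeq2, and 0 to 148, 0 to 105 and 0 to 3 without 1 library. Between the lines under DMSO and under Dox (587 and 727) there were 304 and 405 under that stricter filter, and 299 to 814 and 348 to 1661 without 1 library. The cause of these moves was not tested.

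The replicate numbers share only a number, as no source says that they mark a shared culture and there are 2. Deviations of libraries with the same number correlated at 0.046 to 0.251 between groups. With the number as a replicate block, 13 genes were called in SMARCB1 Dox against SMARCB1 DMSO, 0 MT-ND genes were called in any contrast, and the log2 fold change of MT-ND3 turned to 0.045 there and to −0.018 between the lines under DMSO.

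Several MT-ND fold changes, none of them called, changed sign. With library size as the only scaling, MT-ND4L turned to 0.0070 in the SMARCB1 line, and MT-ND2 to −0.028 and MT-ND6 to −0.015 in the GFP line. That scaling also moved the median of all genes, from −0.020 to 0.087 for Dox in the SMARCB1 line, from 0.022 to −0.060 for GFP, from −0.029 to 0.16 for the difference of the Dox effects and from −0.012 to 0.11 between the lines under Dox, so these turns came with a shift common to the genes. Without 1 library, the log2 fold changes for Dox in the SMARCB1 line ran from −0.81 to 0.20 for MT-ND1, −1.24 to 0.86 for MT-ND2, −0.88 to 1.31 for MT-ND3, −0.60 to 0.66 for MT-ND4L, −1.05 to 0.38 for MT-ND4 and −0.36 to 0.82 for MT-ND5, and kept their sign for MT-ND6 (−0.92 to −0.30). In the GFP line they ran from −0.88 to 0.31 for MT-ND1, −0.056 to 0.14 for MT-ND2, −0.27 to 0.51 for MT-ND4L, −0.45 to 0.32 for MT-ND4, −0.37 to 0.19 for MT-ND5 and −0.35 to 0.68 for MT-ND6. For MT-ND3 they stayed above 0 there (0.14 to 0.40). Between the lines under DMSO they ran from −0.37 to 0.65 for MT-ND1, −0.86 to 1.22 for MT-ND2, −1.34 to 0.86 for MT-ND3, −0.41 to 0.85 for MT-ND4L, −0.34 to 1.07 for MT-ND4 and −0.32 to 0.87 for MT-ND5, and stayed above 0 for MT-ND6 (0.45 to 1.43). Under Dox they ran from −0.17 to 0.64 for MT-ND6 and 0.31 to 0.88 for MT-ND5, and the difference of the Dox effects from −1.24 to −0.22 for MT-ND6. Over all alternatives between the lines under Dox, the other MT-ND genes lay on both sides of 0. The ranges were −0.47 to 0.72 for MT-ND1, −0.77 to 0.41 for MT-ND2, −0.70 to 0.055 for MT-ND3, −0.50 to 0.50 for MT-ND4 and −0.16 to 0.52 for MT-ND4L. Without 1 library, the log2 ratio of MT-ND6 to the heavy-strand genes, Dox minus DMSO, ran from −0.38 to 0.18. For the SMARCB1 line minus the GFP line it ran from 0.089 to 0.61. A group left with 1 library was assumed to vary like the others. With 2 libraries per group, the intervals given above are wide, and they are not limits of detection.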
